A study of Homo sapiens with 8 samples.

Results

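Integrin subunits are the alpha and beta chains of the receptors that fasten cells to the extracellular matrix. The 10 genes described here, ITGA2, ITGA3, ITGA5, ITGA6, ITGAV, ITGB1, ITGB3, ITGB4, ITGB5 and ITGB8, were chosen by name, and every probe that could be assigned to them was read, 21 probes of the 47323 on the array. Of these, 15 probes for 9 genes were kept for testing, and the other 6, among them the only probe of ITGB8, were below detection on all 8 arrays. The study hybridised RNA of the cell line MDA-LM2-shTARBP2 to Illumina expression arrays. Its parent, MDA-LM2, was selected in mice for spread to the lung from MDA-MB-231, a basal-type human breast carcinoma line, and the shTARBP2 form used for both groups also carries a hairpin against TARBP2, an RNA-binding partner of Dicer. The 4 shControl samples received a lentiviral control hairpin and the 4 shZNF395 samples a lentiviral hairpin against ZNF395, a zinc finger transcription factor, and total RNA was taken from all of them at 48 h. The sample labels call the control shControl, while the design text of the series calls it mock-transfected. Because both groups carry the TARBP2 hairpin, the comparison is of a ZNF395 hairpin with a control hairpin on that background, and no sample without the TARBP2 hairpin was analysed here. The labels do not say whether replicates were separate cultures or different hairpins, so a p-value here weighs a difference against variation among these 8 samples, and that variation may be technical.

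Each integrin is a pair of 1 alpha and 1 beta chain, and the pair decides which matrix protein is bound. ITGB1 pairs with many alpha chains, ITGA6 pairs with ITGB1 or ITGB4, and ITGAV pairs with ITGB1, ITGB3, ITGB5 or ITGB8. Beta tails bind talin and kindlin, which switch the receptor on, and most of them join the actin cytoskeleton at focal adhesions, whereas ITGB4 joins keratin filaments through plectin in hemidesmosomes. In carcinoma cells integrins are known for their part in migration, survival signalling and metastasis.

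The sequences shown are RefSeq promoter windows on GRCh38.p14, each from 250 bases before to 50 bases after an annotated start, for ITGA2 and ITGA5, whose probes rose, and for ITGA6, which had a probe that fell. The window of ITGA2 is chr5:52989102-52989401 on the plus strand, that of ITGA5 is chr12:54419217-54419516 on the minus strand, and the ITGA6 window shown is chr2:172427336-172427635 on the plus strand, 1 of 2 RefSeq windows of that gene. Capitals mark matches on either strand to AP-1 (TGANTCA), Sp1 (GGGCGG), ETS (CCGGAA), the E2 box (CACCTG) and NF-kappaB.
ITGA2: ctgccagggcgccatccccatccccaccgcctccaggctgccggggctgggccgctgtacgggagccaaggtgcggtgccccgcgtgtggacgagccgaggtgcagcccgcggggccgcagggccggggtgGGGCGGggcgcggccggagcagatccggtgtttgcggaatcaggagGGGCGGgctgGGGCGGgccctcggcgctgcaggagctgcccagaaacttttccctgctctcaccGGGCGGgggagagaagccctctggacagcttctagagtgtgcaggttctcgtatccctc
ITGA5: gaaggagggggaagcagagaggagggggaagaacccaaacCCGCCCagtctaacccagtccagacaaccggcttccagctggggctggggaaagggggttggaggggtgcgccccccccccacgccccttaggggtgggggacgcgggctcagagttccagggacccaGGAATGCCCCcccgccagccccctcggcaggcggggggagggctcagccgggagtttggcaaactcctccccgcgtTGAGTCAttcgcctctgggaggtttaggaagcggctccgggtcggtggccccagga
ITGA6: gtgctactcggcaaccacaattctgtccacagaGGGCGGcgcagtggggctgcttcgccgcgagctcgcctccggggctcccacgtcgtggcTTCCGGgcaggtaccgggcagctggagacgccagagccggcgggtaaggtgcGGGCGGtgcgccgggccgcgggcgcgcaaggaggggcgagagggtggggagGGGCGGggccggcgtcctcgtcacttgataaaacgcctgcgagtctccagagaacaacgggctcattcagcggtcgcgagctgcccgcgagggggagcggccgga
The ITGA2 window held 4 Sp1 matches and none of the other motifs. The ITGA5 window held 1 AP-1, 1 Sp1 and 1 NF-kappaB match. The ITGA6 window shown held 3 Sp1 matches and 1 ETS match, and the other ITGA6 window, chr2:172427086-172427385, held 1 Sp1 match and 2 E2 boxes. Of 35116 RefSeq promoters of the same length, 45.0% held an Sp1 match, 17.2% an ETS match, 20.6% an E2 box, 7.71% an AP-1 match and 5.91% an NF-kappaB match. No matches of different motifs overlapped in the windows shown. These are matches of letters, and binding was not measured.

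The targeted gene was read first. ZNF395 (probe ILMN_1772876) had log2 intensities of 9.89, 9.80, 9.80 and 10.05 on shControl arrays 1 to 4 and of 9.06, 8.99, 9.22 and 9.06 on shZNF395 arrays 1 to 4. The groups did not overlap, and the ZNF395 log2 signal fell by 0.80 (SE 0.0774, adjusted p = 1.007e-05, limma), to 57.3% of the control. The median raw signal lay between 53.2 and 57.1 per array, and between 16476 and 17406 probes were detected on an array at a detection p under 0.01. Across probes, arrays of the same group correlated at 0.9931 or above, and arrays of different groups at 0.9745 or below. Both arrays numbered 3 stood slightly apart: shControl 3 had the fewest detected probes, shZNF395 3 had more than the others of its group (17191 against 16834 to 16882), and each had the highest mean correlation with the other group. Of 10 markers of the basal, mesenchymal type of line, 9 were detected on all 8 arrays, VIM and CD44 among them, and KRT18 was below detection on its named probes. Of 7 luminal markers, ESR1, PGR, GATA3, FOXA1, CDH1 and TFF1 were below detection on all arrays and ERBB2 was detected.

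In shZNF395 cells 8 of the 15 kept integrin probes were higher and 2 were lower, so that 66.67% passed an adjusted p of 0.05 in limma's moderated test over all kept probes. The background was high: 55.4% of the 17184 kept probes passed, 25.3% higher and 30.0% lower. Most kept probes thus differed between the groups, and the count of integrin probes is to be read against that. Probes of ITGA2, ITGA3, ITGA5, ITGAV, ITGB3 and ITGB4 rose, and so did 1 of the 3 kept probes of ITGB1. A probe of ITGA6 and a probe of ITGB5 fell. The median log2 difference was 0.19 over the kept integrin probes and -0.05 over all kept probes, and the median absolute difference was 0.35 and 0.26. Groups did not overlap for 10 of the 15 integrin probes, against 49.0% of all kept probes. With each gene read by its brightest kept probe, 6 of 9 integrin genes were higher, 1 was lower and 2 were not called, with 57.6% of all named genes called, 29.7% higher and 27.8% lower. In RNA from a whole culture, a change in the number of cells that make a transcript and a change in the amount per cell cannot be told apart.

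**Figure D1:**
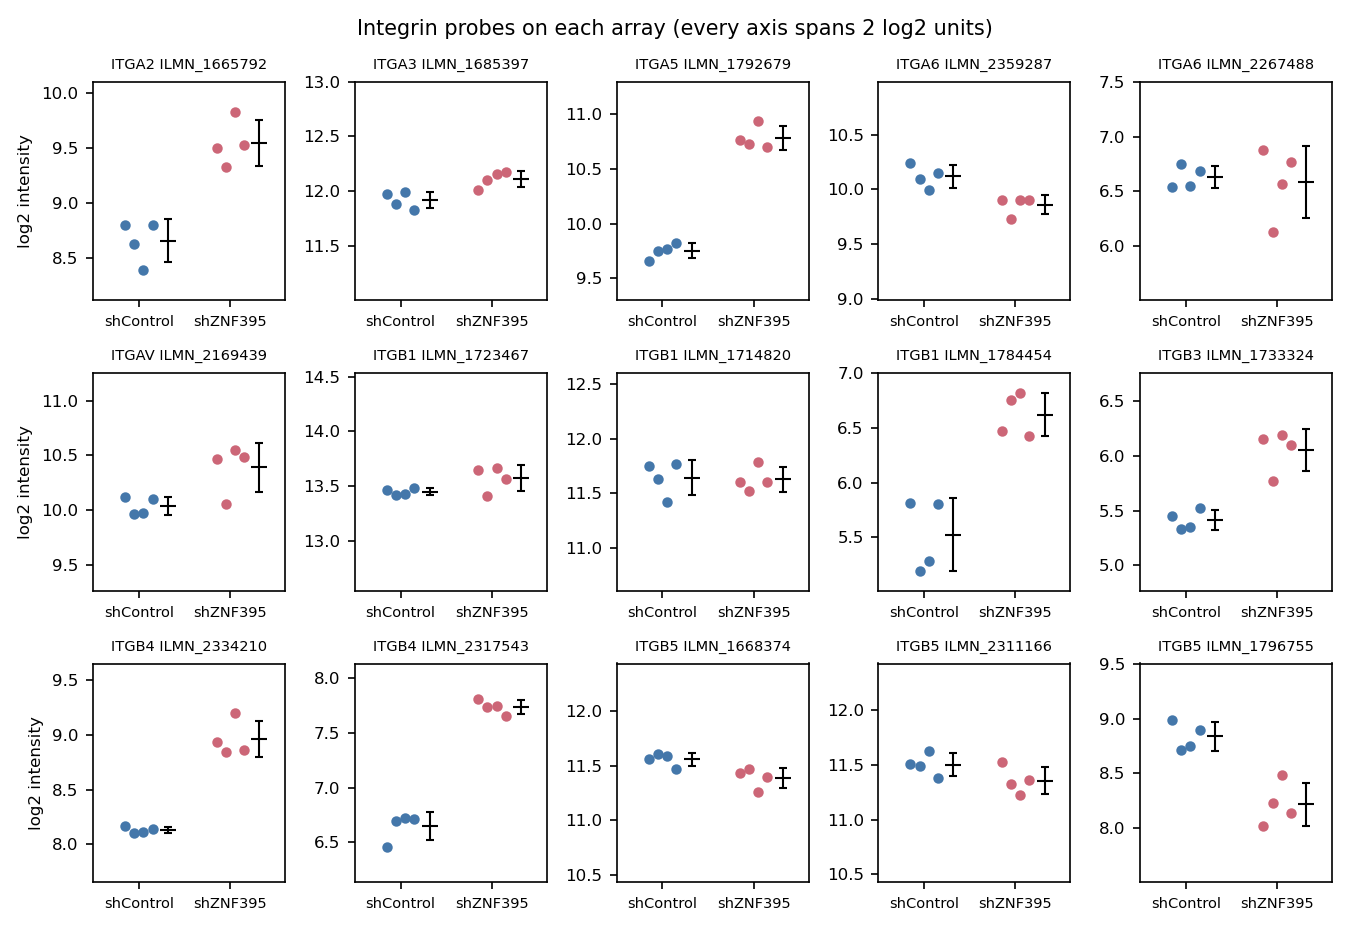
Log2 intensity of the 15 kept integrin probes on each array, with shControl arrays 1 to 4 and shZNF395 arrays 1 to 4 as points from left to right and the bars as mean and SD (n = 4). Every vertical axis spans 2 log2 units, and the groups are apart for ITGA5, ITGA2 and both probes of ITGB4 while the points of ITGB1 ILMN_1723467 and ILMN_1714820 overlap.

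ITGA5 is the alpha chain of the classical fibronectin receptor, formed with ITGB1. Its probe ILMN_1792679 read 9.66, 9.75, 9.77 and 9.83 on the shControl arrays and 10.77, 10.72, 10.94 and 10.70 on the shZNF395 arrays, in the order of their numbers. Every shZNF395 array lay above every shControl array. The ITGA5 mean went from 9.75 ± 0.07 to 10.78 ± 0.11 (SD, n = 4 each), a log2 rise of 1.03 (SE 0.0715) or 2.04-fold, with an adjusted p of 9.206e-07 (limma). Of all kept probes, 3.88% had a larger absolute change. The authors' deposited table gives 0.97 for ITGA5 on the authors' own scale. FN1, the gene of fibronectin itself, was below detection on its named probes on all arrays.

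ITGA2 forms the main collagen receptor of epithelial cells with ITGB1. Probe ILMN_1665792 read 8.80, 8.63, 8.39 and 8.80 in shControl and 9.50, 9.33, 9.83 and 9.53 in shZNF395. The groups did not overlap, although the arrays of each group were more spread than those of ITGA5. The means were 8.65 ± 0.19 and 9.55 ± 0.21 (SD, n = 4 each), and ITGA2 rose by 0.89 (SE 0.119, adjusted p = 0.0001017, limma), which is 1.86-fold. In the authors' deposited table the entry of ITGA2 is 0.76.

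ITGAV is the alpha chain shared by the receptors that recognise the RGD motif of vitronectin, fibronectin and osteopontin. ITGAV ILMN_2169439 read 10.12, 9.96, 9.98 and 10.10 on the shControl arrays and 10.47, 10.06, 10.55 and 10.48 on the shZNF395 arrays. The groups overlapped: shZNF395 array 2 lay within the range of the controls and the other 3 arrays lay above it. ITGAV rose by 0.35 (SE 0.1035, adjusted p = 0.01418, limma), or 1.27-fold. Leaving out shZNF395 array 2 gave 0.46, and leaving out both arrays numbered 3 gave 0.28 with an adjusted p of 0.0667 (limma), which no longer passed. The authors' deposited entry of ITGAV is 0.33.

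ITGA3 and ITGA6 are laminin receptor chains. ITGA3 ILMN_1685397 read 11.97, 11.88, 11.99 and 11.83 in shControl and 12.01, 12.10, 12.16 and 12.17 in shZNF395, so the groups were apart by a narrow margin. The rise of ITGA3 was small, a log2 difference of 0.19 (SE 0.0662, 95% interval 0.046 to 0.339, adjusted p = 0.0292, limma). It did not pass without normalization between arrays (0.19, adjusted p = 0.128), or without shControl array 2 (adjusted p = 0.0709), shControl array 4 (0.0862), shZNF395 array 2 (0.0532), shZNF395 array 3 (0.0546) or shZNF395 array 4 (0.0757), all from limma. A further ITGA3 probe, ILMN_1654074, was below detection on all 8 arrays. The authors' deposited entry of ITGA3, 0.11, equals the mean over the 2 probes.

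ITGA6 was the alpha chain with a fall. Probe ILMN_2359287 read 10.24, 10.09, 9.99 and 10.15 in shControl and 9.90, 9.73, 9.91 and 9.90 in shZNF395. All 4 shZNF395 arrays lay below the lowest control, with shZNF395 array 2 the lowest. ITGA6 on this probe fell by 0.26 (SE 0.0735, adjusted p = 0.01142, limma), to 83.5% of the control. The dimmer probe ILMN_2267488 read 6.54, 6.75, 6.55 and 6.69 against 6.88, 6.13, 6.57 and 6.77, and its groups overlapped. Its difference of -0.045 (adjusted p = 0.803, limma) had a 95% interval from -0.354 to 0.264, which holds the fall of the brighter probe. The third probe, ILMN_1687974, was below detection on all arrays, and the authors' deposited table holds for ITGA6 an entry of -0.08, which equals the mean over the 3 probes.

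ITGB4, which carries the long cytoplasmic tail that binds plectin in hemidesmosomes, rose on both of its kept probes. ILMN_2334210 read 8.17, 8.11, 8.12 and 8.14 in shControl and 8.93, 8.85, 9.20 and 8.86 in shZNF395. The control values lay within a narrow band and all 4 shZNF395 arrays stood well above it. The rise was 0.83 (SE 0.0819, adjusted p = 1.241e-05, limma), or 1.77-fold. ILMN_2317543 read 6.46, 6.69, 6.72 and 6.71 in shControl against 7.81, 7.74, 7.75 and 7.66 in shZNF395, again with no overlap. It rose by 1.09 (SE 0.075, adjusted p = 8.39e-07, limma), or 2.13-fold. The 2 other ITGB4 probes, ILMN_2253707 and ILMN_1653965, were below detection on every array. In the authors' deposited table the entry of ILMN_2317543 is 0.65, and that of ILMN_2334210 averaged with ILMN_2253707 is 0.32.

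ITGB3 is the beta chain of the vitronectin receptor of ITGAV and, with ITGA2B, of the platelet fibrinogen receptor. ITGB3 ILMN_1733324 is a dim probe, detected on 3 of 4 shControl and 4 of 4 shZNF395 arrays. It read 5.45, 5.33, 5.35 and 5.52 in shControl and 6.15, 5.77, 6.19 and 6.10 in shZNF395, with no overlap and with shZNF395 array 2 the lowest of its group. ITGB3 rose by 0.64 (SE 0.0955, adjusted p = 0.0002131, limma), or 1.56-fold. The size depended on how the background was treated: the lowest value over the alternatives was 0.39, which still passed. On the authors' own scale the deposited entry of ITGB3 is smaller, 0.23. ITGA2B was below detection on all 8 arrays.

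ITGB1, the common beta chain of ITGA2, ITGA3, ITGA5 and ITGA6, gave different values on different probes. ILMN_1723467 read 13.47, 13.42, 13.43 and 13.48 in shControl and 13.65, 13.41, 13.67 and 13.57 in shZNF395. Arrays 1, 3 and 4 of shZNF395 lay above the controls and array 2 lay below them. The ITGB1 difference on this probe was 0.12 (SE 0.0697, adjusted p = 0.1535, limma), with a 95% interval from -0.030 to 0.278, and it passed without shZNF395 array 2 (0.18, adjusted p = 0.0401, limma). ILMN_1714820 differed by -0.01 (SE 0.0908, adjusted p = 0.903, limma), with an interval from -0.215 to 0.186. The third kept probe, ILMN_1784454, was dim, detected on 2 of 4 shControl and 4 of 4 shZNF395 arrays. It matched an entry of its own in the authors' deposited table, 0.44 on their scale. It read 5.81, 5.19, 5.28 and 5.81 against 6.48, 6.75, 6.82 and 6.43, with no overlap. This probe rose by 1.10 (SE 0.154, adjusted p = 0.0001472, limma), or 2.14-fold, and by 0.72 at the lowest over the alternatives. A further ITGB1 probe, ILMN_1754233, was below detection throughout.

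ITGB5 pairs with ITGAV as a further vitronectin receptor. ITGB5 ILMN_1668374 read 11.56, 11.60, 11.59 and 11.47 in shControl and 11.43, 11.47, 11.26 and 11.40 in shZNF395. The groups did not overlap by a narrow margin, and the difference of -0.17 (SE 0.0664, adjusted p = 0.0530, limma) did not pass. Without shControl array 4 it passed (adjusted p = 0.0485), and likewise without shZNF395 array 2 (0.0453), both from limma. ILMN_2311166 differed by -0.15 (SE 0.0806, adjusted p = 0.147, limma), and its groups overlapped. ILMN_1796755 read 8.99, 8.71, 8.75 and 8.90 in shControl and 8.02, 8.22, 8.48 and 8.14 in shZNF395, and every shZNF395 array lay below every control. ITGB5 on that probe fell by 0.62 (SE 0.103, adjusted p = 0.0004508, limma), to 65.0% of the control. The authors' deposited table has -0.27 for ITGB5, the mean over the 3 probes.

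ITGB8 pairs with ITGAV in a receptor that releases active TGF-beta from its latent form. Its probe ILMN_1732921 was below detection on all 8 arrays, with raw signals between 35.1 and 48.5, so no change of ITGB8 was measurable at this signal.

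**Figure D2:**
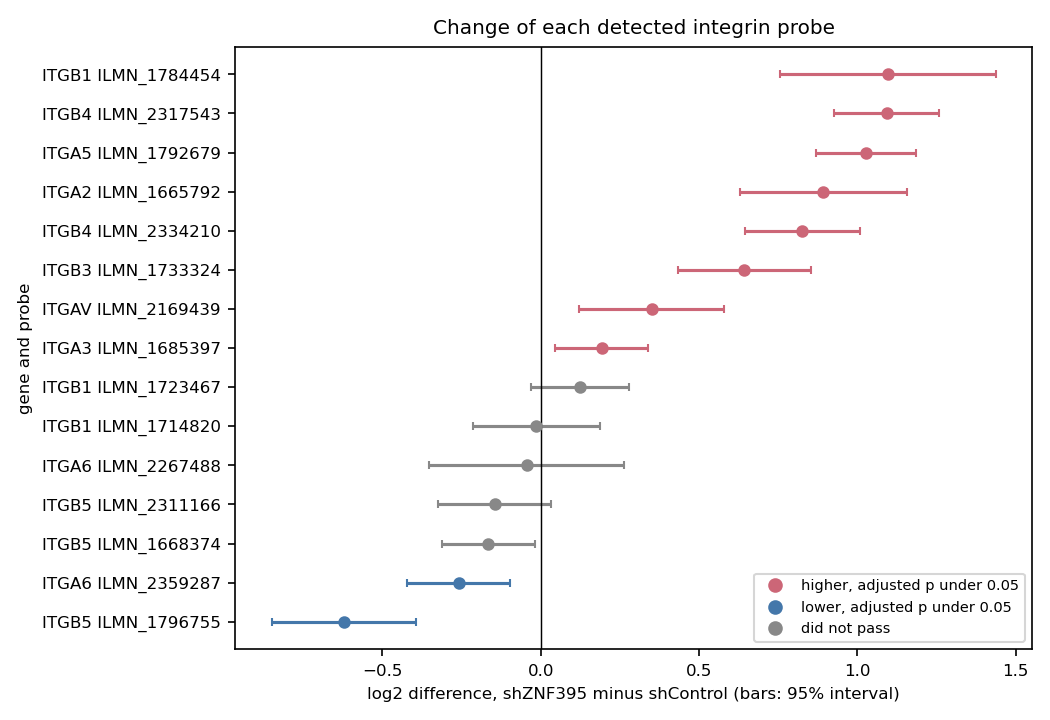
Log2 difference, shZNF395 minus shControl, of each kept integrin probe with its 95% interval (n = 4 arrays per group), coloured by whether its adjusted p was under 0.05. The differences run from -0.62 for ITGB5 ILMN_1796755 to 1.10 for ITGB1 ILMN_1784454, and 5 probes of ITGB1, ITGA6 and ITGB5 did not pass.

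Since each receptor needs both chains, it was asked whether partner chains changed by different amounts. Of 9 known pairs among the 10 genes, 8 could be measured, and the pair of ITGAV with ITGB8 could not. For each array the log2 value of the beta chain was subtracted from that of the alpha chain, each read by its brightest kept probe, and the change of that difference between groups was tested with an exact two-sided permutation test over the 70 splits of the arrays, adjusted over the 8 pairs. The smallest p that this design allows is 0.0286. Changes were unequal for 5 pairs, each with p = 0.0286 (exact permutation test) and an adjusted p of 0.0457. ITGA5 changed by 0.90 more than ITGB1 and ITGA2 by 0.77 more than ITGB1. On these probes, the alpha chains of the fibronectin and the collagen receptor thus rose relative to their beta chain. Both pairs of ITGA6 went the other way, with changes in the log2 difference of -0.38 for ITGA6 less ITGB1 and of -1.09 for ITGA6 less ITGB4. For ITGAV less ITGB3 it was -0.29, a value that shrank to -0.06 (adjusted p = 0.327, exact permutation test) without background correction, ITGB3 being the dim chain. Without background correction, and with an offset of 50, none of the 8 pairs passed: the other 4 kept changes of similar size (0.72, 0.88, -0.38 and -1.01 without correction) at an adjusted p of 0.0571 (exact permutation test). The values with ITGB1 hold for its brightest probe, ILMN_1723467. Its probe ILMN_1714820 differed by -0.01, and the dim ILMN_1784454 rose by 1.10, more than ITGA5 (1.03) or ITGA2 (0.89). Pairs with these other ITGB1 probes were not tested.

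The remaining 3 pairs did not pass. For ITGA3 less ITGB1 the change was 0.07 (p = 0.457, exact permutation test). ITGAV less ITGB1 gave 0.23 and ITGAV less ITGB5 gave 0.52, both with p = 0.0571 and adjusted p = 0.0653 in the exact permutation test. In both pairs shZNF395 array 2 overlapped the controls, and without it they passed at 0.28 and 0.65 (adjusted p = 0.0327, exact permutation test). Probe signals of different genes have no common scale, so these values show unequal change and not which chain was in excess.

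**Figure D3:**
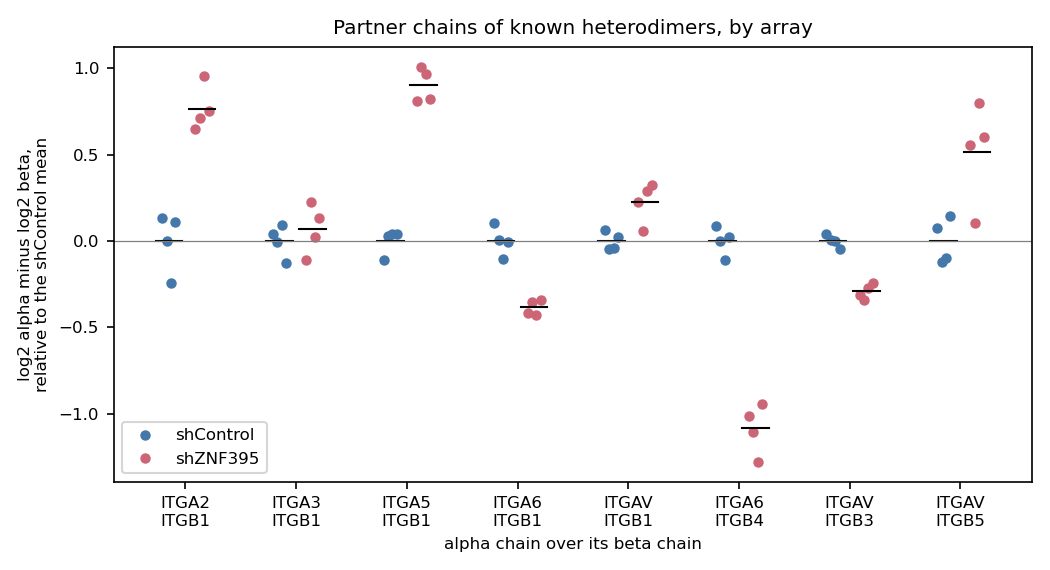
Log2 of the alpha chain minus log2 of the beta chain on each array, relative to the shControl mean, for 8 known integrin pairs, with horizontal lines at group means (n = 4 arrays per group). The shZNF395 arrays are highest for ITGA5 with ITGB1, around 0.90, and lowest for ITGA6 with ITGB4, around -1.09.

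The different values from probes of 1 gene were tested in the same way over 8 probe pairs, and none passed (smallest adjusted p 0.114, exact permutation test). Of the 8 pairs, 2 had an unadjusted p of 0.0286, the smallest that the design allows. With so few pairs at that value none can pass after adjustment over 8 pairs, so the result does not show that the probes changed alike. Those 2 set ITGB1 ILMN_1784454 against ILMN_1723467 (difference of changes -0.97) and against ILMN_1714820 (-1.11), and in both the groups did not overlap. In ITGB5 the fall of ILMN_1796755 exceeded that of the other 2 probes by 0.46 and 0.48 (adjusted p = 0.171, exact permutation test). Between the ITGB4 probes the difference was -0.27 (adjusted p = 0.183) and between the ITGA6 probes -0.21 (adjusted p = 0.229), by the same exact permutation test. Without shZNF395 array 3, 5 of the 8 pairs passed, each at an adjusted p of 0.0457 in the exact permutation test: those 2 of ITGB1, those 2 of ITGB5 and that of ITGB4. Which transcripts each probe can bind was not analysed here.

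The laminin-binding side of the family was set beside its ligand and its anchor. The hemidesmosome list had 7 measured genes of 9, of which 4 were higher and none lower (57.1% called, against 57.6% of named genes), with a median change of 0.38. Among those that rose were LAMA3 and LAMB3, chains of laminins that ITGA3 and ITGA6 receptors bind, and CD151, a tetraspanin that associates with those receptors in the membrane. LAMB3 read 11.47, 11.29, 11.42 and 11.53 in shControl and 12.04, 12.03, 12.31 and 12.09 in shZNF395, with no overlap. It rose by 0.69 (SE 0.0822, adjusted p = 4.667e-05) and LAMA3 rose by 0.62 (adjusted p = 0.0001703), while a second LAMA3 probe gave 0.12 and did not pass, all by limma. CD151 rose by 0.38 (adjusted p = 0.001149, limma), and by 0.68 and 0.32 on its other kept probes.

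The intracellular anchors of the list and the collagen COL17A1 did not pass on their brightest probes. PLEC, the plectin that links ITGB4 to keratin, differed by 0.21 (adjusted p = 0.0599), DST by 0.20 (adjusted p = 0.114) and COL17A1 by 0.06 (adjusted p = 0.533), all in limma. Of 4 other kept DST probes, 2 fell, by 0.21 (adjusted p = 0.0329) and 0.29 (adjusted p = 0.0468, limma), and 2 did not pass. The keratins KRT5 and KRT14 were below detection on all arrays. Thus ITGB4, LAMA3, LAMB3 and CD151 were higher in shZNF395 on their brightest probes while ITGA6, the alpha chain that pairs with ITGB4, was lower.

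**Figure D4:**
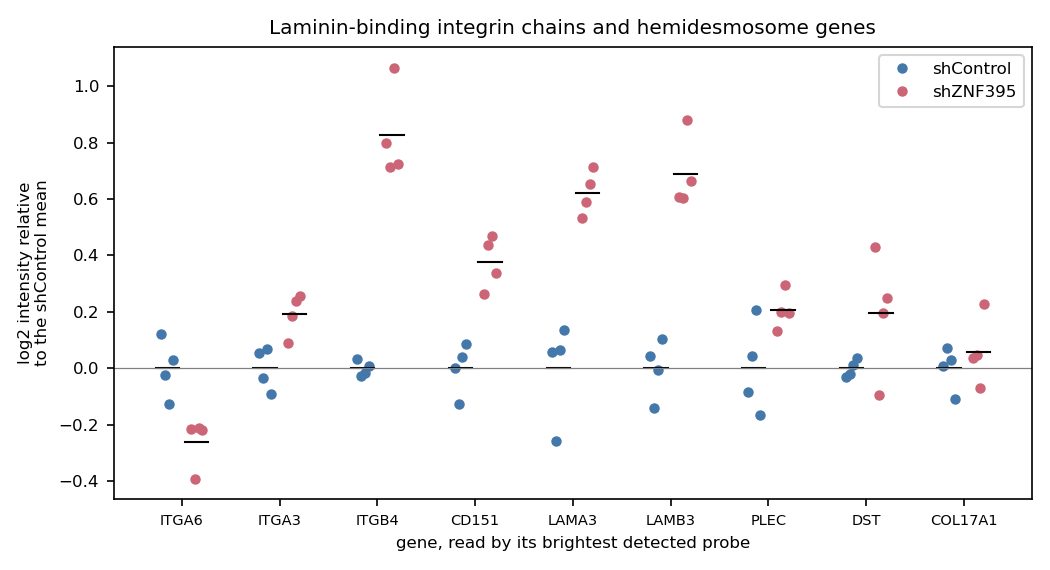
Log2 intensity on each array relative to the shControl mean, for the laminin-binding chains ITGA6, ITGA3 and ITGB4 and for 6 genes of the hemidesmosome list, each gene read by its brightest kept probe (horizontal lines are group means, n = 4 arrays per group). ITGA6 lies below the controls, ITGB4, LAMA3, LAMB3 and CD151 lie above them, and the arrays of PLEC, DST and COL17A1 overlap.

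Among 36 matrix and cell-surface ligands of integrins 26 were measured, and 11 rose and 5 fell (61.5% called, near the 57.6% of all named genes), with a median change of 0.08. SPP1, the gene of osteopontin, a ligand of the ITGAV receptors, was below detection on all 4 shControl arrays and was at least 6.43-fold higher in shZNF395 on its brightest probe and at least 3.21-fold on a second, which was likewise below detection in all controls. MFGE8, another RGD ligand of the ITGAV receptors, rose by 0.81 (adjusted p = 1.946e-06, limma). COL6A3, a chain of collagen VI, fell by 1.35 (adjusted p = 7.901e-08, limma), and a second probe gave -1.36. VTN, the gene of vitronectin, was below detection on all arrays, as was the latent TGF-beta gene TGFB1 on its named probes.

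The genes that switch integrins on or off gave 8 rises and no fall among 15 measured genes on their brightest probes (53.3% called, against 57.6% of all named genes, 29.7% higher and 27.8% lower), with a median change of 0.26. FERMT1, a kindlin, rose by 0.36 (adjusted p = 0.0003962). APBB1IP, the RAP1 effector that recruits talin, rose by 0.32 (adjusted p = 0.0009013), and the talin TLN2 rose by 0.42 (adjusted p = 0.00197), all by limma. On other probes 2 genes of the list fell. ITGB1BP1, an inhibitor that binds the ITGB1 tail, differed by 0.05 on its brightest probe and fell by 0.73 on a second (adjusted p = 1.977e-05, limma). RSU1 differed by 0.02 on its brightest probe and fell by 0.56 on a second (adjusted p = 0.01188, limma). These 2 genes lie outside the rule for named genes and were chosen after their values were seen.

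The adhesion plaque couples integrins to actin and to kinase signalling. Of its 39 measured genes 16 were lower and 7 higher (59.0% called, against 57.6% of all named genes, of which 27.8% were lower and 29.7% higher), with a median change of -0.09. The direction of the list was not tested. The Rac activator DOCK1 fell by 0.66 (adjusted p = 1.702e-05), the paxillin-binding adaptor GIT2 by 0.56 (adjusted p = 4.629e-05) and zyxin, ZYX, by 0.48 (adjusted p = 7.088e-05). KANK1, which binds talin at the rim of adhesions, rose by 0.70 (adjusted p = 1.116e-05, all by limma).

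Of 14 measured membrane partners 5 rose and 2 fell, a share called below the 57.6% of all named genes, with a median of 0.06. Besides CD151, the tetraspanins CD82 and CD9 rose by 0.80 (adjusted p = 7.808e-06) and 0.67 (adjusted p = 0.0001216), and the syndecan SDC1 fell by 0.31 (adjusted p = 0.002401, all by limma). A second CD82 probe gave 0.27 and did not pass (adjusted p = 0.115, limma). Of 19 measured genes of integrin endocytosis and recycling, 8 rose and 4 fell (63.2% called, against the same 57.6%), with a median of 0.09. The endocytic adaptor DAB2, which takes up integrins through clathrin, rose by 1.26 (adjusted p = 2.492e-06) and EPS8, an actin-regulating adaptor, by 0.75 (adjusted p = 5.352e-06). The recycling genes RAB11FIP1 and RAB4A fell by 0.49 (adjusted p = 0.0001351) and 0.48 (adjusted p = 0.0002069), all by limma, and a second RAB11FIP1 probe gave -0.11 and did not pass.

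**Figure D5:**
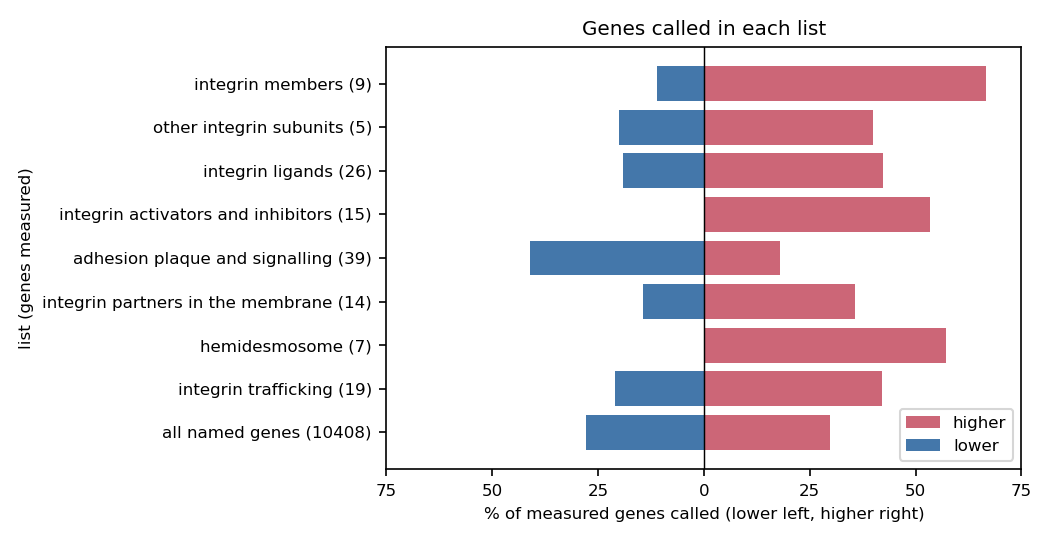
Share of measured genes called lower (left, in percent) and higher (right, in percent) at an adjusted p under 0.05, for the integrin genes, for 7 lists of related genes and for all 10408 named genes, each gene read by its brightest kept probe. The plaque list has 16 lower and 7 higher genes of 39, and the activators have 8 higher and none lower of 15.

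Of 16 integrin subunits outside the 10 genes, 10 were below detection on all arrays and 5 were measured. ITGA1, a collagen receptor chain that pairs with ITGB1, read 5.82, 5.69, 5.90 and 5.78 in shControl and 6.67, 6.57, 6.21 and 6.48 in shZNF395. The groups did not overlap, and ITGA1 rose by 0.69 (adjusted p = 0.0001403, limma). ITGB2, the leukocyte beta chain, rose by 0.68 (adjusted p = 0.0001194) and by 0.66 on a second probe, and ITGA4 fell by 0.28 (adjusted p = 0.02025), by limma. The remaining 2 measured chains did not pass, ITGAE with -0.04 (adjusted p = 0.649) and ITGB7 with -0.11 (adjusted p = 0.518, limma).

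Markers of other cell types were read because several of them moved with the integrins, so the shares called are a description and not a test. Of 12 leukocyte markers 6 were measured, 4 rose and 1 fell (83.3% called, against 57.6% of all named genes). Their summed intensity was 4271 to 4769 in shControl and 8361 to 8919 in shZNF395. CD14 rose by 1.45, CD68 by 1.11 and ITGB2 by 0.68 (limma, threshold as above), and CD79A was at least 1.27-fold higher. ITGA4 fell by 0.28, and LAPTM5 differed by 0.16 and did not pass (adjusted p = 0.292, limma). The CD79A probe was below detection on all shControl arrays and passed the filter only through the shZNF395 arrays. The 83.3% counts it, so that share is not a like comparison with the 57.6%. The defining leukocyte markers PTPRC, TYROBP and CD3E, and the chains ITGAM, ITGAL and ITGAX that pair with ITGB2, were below detection on all 8 arrays. Of 7 endothelial markers ESAM, ROBO4 and PECAM1, the 3 that were measured, rose by 0.86, 0.49 and 0.36 (100% called, against the same 57.6%). Their summed intensity was 1176 to 1287 in shControl and 2054 to 2269 in shZNF395. CDH5, VWF, TEK and KDR were below detection. Of 6 fibroblast markers 2 were measured: COL1A1 rose by 0.29 and LUM was at least 4.38-fold higher (100% called, against the same 57.6%). Their summed intensity was 285.5 to 331.2 in shControl and 492.2 to 527.6 in shZNF395. LUM, too, was below detection on all shControl arrays and was kept only through the shZNF395 arrays, and the 100% counts it. DCN and FAP were below detection, and COL1A2 and PDGFRB had no kept probe. Neither of the 2 measured platelet markers of 5 passed (summed intensity 133.3 to 153.2 against 135.5 to 154.0), and ITGA2B, GP9 and PF4 were below detection. Probe signals of different genes have no common scale, and most of each sum came from 1 probe, that of CD68, ESAM, COL1A1 or GP1BA. The rise of the fibroblast sum, however, came mostly from LUM. Its mean log2 value went from 4.44 in shControl, below detection, to 7.38 in shZNF395, and that of COL1A1 from 8.12 to 8.41. The part of the cell type markers in the integrin changes was not tested.

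The genes whose values over the 8 arrays were most like those of 2 integrin probes were listed as a description. For ITGB1 ILMN_1784454, the probe with the largest rise, these were PGPEP1 (Pearson r = 0.990), IDH3B (0.989) and SUSD1 (0.986). For ITGB5 ILMN_1796755, the probe with the largest fall, they were NPLOC4 (0.997), CRYBB2 (0.996) and ASXL1 (0.993). Such values were common: 746 and 921 of 10399 genes had a correlation of at least 0.9 with the 2 probes, and the points share their 2 groups, so that genes which differ between the groups correlate with each other.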

How the data were processed

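For each of 47323 probes the table deposited without normalization gives, per the file headers, an intensity per array and the p-value of detection beside it. The series matrix holds linear intensity values as normalized by the authors. Lumi is the tool named, with no version, in the submitters' processing notes. Fold changes computed by the authors were deposited for 39747 transcript entries, with no value per array. Their scale was close to log2 for bright probes such as that of ITGA5 (0.97 deposited, 1.03 here). For dim probes it gave smaller values, 0.23 against 0.64 for ITGB3 and 0.44 against 1.10 for ITGB1 ILMN_1784454. Array build and slides are not given in the sources used here.

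No table pairs probes with genes, so names were recovered from values. After an inverse hyperbolic sine transform, the group difference of 1 probe equalled the deposited fold change of 33131 entries within 1e-09, against 0.0377% of entries once values were shifted. The mean of 2 to 4 probes within 8 rows of each other equalled that of a further 6204 entries, against 1 to 10 after a shift. RefSeq gave 1 symbol for 22411 entries, and 21.5% of kept probes have no name. Of the 21 integrin probes, 9 were named by an entry of a single probe and 12 by an entry of several. Promoters were matched by symbol for 7 genes.

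Raw intensities were background-corrected in limma 3.58.1 (R 4.3.3; normexp, offset 16, with negative controls derived from detection p-values), quantile-normalized and put on the log2 scale. Probes detected at p under 0.01 on at least 4 of 8 arrays, 17184 in all, were kept. The test was limma's moderated test (two-sided), adjusted over all kept probes by Benjamini-Hochberg, at 0.05. Genes on lists were read by their brightest kept probe. A probe below detection on all arrays of a group has only a lower bound of its fold, against the higher of its own value and the lowest detected signal on each array. Members, lists and tests were chosen with earlier results of these data known. The text names the 10 members, ZNF395, up to 4 called genes with the smallest adjusted p of each list, and the 3 genes most like the probes with the largest rise and fall. PLEC, DST, COL17A1, ITGB1BP1, RSU1, ITGAE, ITGB7, LAPTM5 and genes listed as below detection stand outside this rule. Genes that met the rule but are withheld are counted in their lists and not reported by name here. Data were simulated for shZNF395 against shControl over 17184 probes, with 50 probes changed at each size and 16984 unchanged. Of probes changed by 0.3 on the log2 scale 14% were recovered, 86% at 0.5 and 100% at 1 and 2, with 8 false calls. In the real data 55.4% of kept probes passed, which makes the adjusted threshold less strict. These shares are therefore not the recovery of the real comparison. The number of arrays limits the precision. Alternatives changed the background, the scaling, the source of the values, the detection filter, moderation, weights, the threshold, the replicate block and the arrays used. Leaving out both arrays numbered 3, and using single-probe entries alone, were chosen after seeing the data. Python 3.11.15, numpy 2.4.6, scipy 1.17.1, pandas 2.3.3 and matplotlib 3.10.9 were used.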

Additional observations from a re-analysis of the deposited data

Results flagged for a closer look

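Among 108 groups of 4 arrays for 54 probes, 7 held an array far from its group by Dixon's test, where chance gives about 1 in 20. Array shZNF395 2 lay apart for ITGA6 ILMN_2359287, at 9.73 against 9.90 to 9.91 on the others, and for ITGAV, at 10.06 against 10.47 to 10.55. Array shControl 1 lay apart for ITGB4 ILMN_2317543, at 6.46 against 6.69 to 6.72, for SPP1, at 4.31 against 4.79 to 4.85, all below detection, and for MFGE8, at 11.14 against 10.981 to 10.999. Array shZNF395 3 lay apart for CD9, at 10.39 against 10.21 to 10.23, and for EPS8, at 8.65 against 8.81 to 8.84. All values are log2 intensities.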

How the results depend on the processing

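Of 313 probe differences recomputed under alternatives, 289 kept their direction and side of the threshold, 11 lost the threshold, 8 gained it and 5 turned sign. The calls for ITGA2, ITGA5, ITGB3, both kept probes of ITGB4, ITGB1 ILMN_1784454 and ITGB5 ILMN_1796755 passed under every alternative that could be run for them. Those lost were ITGA3 (8 alternatives), ITGAV (without both arrays numbered 3, and at an adjusted p of 0.01) and ITGA6 ILMN_2359287 (at 0.01). Leaving out each array in turn gave 9 to 11 called integrin probes, 7 to 8 higher and 2 to 3 lower. At an adjusted p of 0.01, 7 were called, 6 higher and 1 lower. With the brightest probe per gene the count was 7, 6 higher and 1 lower. With only the probes named by an entry of a single probe it was 6, all higher and 0 lower. The kept probes of ITGA6 and ITGB5, which hold both falls, were all named by an entry of several probes and so were left out of that count. Probes called among all kept ones numbered 9512, between 8597 and 9679 with an array left out and between 7178 and 10435 otherwise. List members called numbered 80, between 69 and 81 with an array left out and between 64 and 88 otherwise. The median of all kept probes moved by less than 0.1 under each scaling.

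The sign turned for ITGA6 ILMN_2267488 (0.0028 with array weights, and from -0.1415 to 0.1068 with an array left out), for ITGB1 ILMN_1714820 (from -0.0891 to 0.0258 with an array left out) and for the difference between ITGB5 ILMN_1668374 and ILMN_2311166 (from -0.0595 to 0.0224 with an array left out). None of these passed in any setting. ITGB5 ILMN_1668374 gained the threshold without background correction (adjusted p = 0.0369), with offset 50 (0.0352), with the series matrix (0.0395), with detection on all 8 arrays (0.0466) and with trended robust moderation (0.0237), all in limma. Of the partner chain differences, 5 to 7 passed with an array left out, and 0 passed without background correction and 0 with offset 50. There ITGAV less ITGB3 was lost (-0.06 and -0.05), and 1 fewer small p raises the adjusted p of the other 4 pairs to 0.0571 (exact permutation test), whose differences were 0.72, 0.88, -0.38 and -1.01 in the first case. ITGAV less ITGB1 passed with median scaling and without normalization between arrays (0.28, adjusted p = 0.0381, exact permutation test). Of the probe pairs, 0 to 5 passed with an array left out, and 0 under the other alternatives.

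No sign of pairing by replicate number was seen: same-numbered arrays deviated from their group means with correlations of -0.11, 0.01, -0.42 and -0.09. Whether same-numbered samples were handled together is not given in the labels, and these correlations cannot decide it. With the replicate number as a block 9 integrin probes were called, 7 higher and 2 lower, and ITGA3 was the call that was lost (adjusted p = 0.0745, limma). Signal limits ITGB8 and 5 further probes, which were below detection, and ITGB3 and ITGB1 ILMN_1784454, which lay close to it.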
